A study of Homo sapiens with 6 samples.

Results

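The 10 enzymes of glycolysis described here were hexokinase HK2, glucose-6-phosphate isomerase GPI, phosphofructokinase PFKP, aldolase ALDOA, triosephosphate isomerase TPI1, glyceraldehyde-3-phosphate dehydrogenase GAPDH, phosphoglycerate kinase PGK1, enolase ENO1, pyruvate kinase PKM and lactate dehydrogenase LDHA. They were chosen by gene name for their place in the pathway and not by a rule on measured values, but earlier results of these data were known. They are 10 of the 19053 genes to which rows of the expression table could be matched by RefSeq protein accession. They occupied 50 of the table's 109018 rows, because the table has a row for each protein isoform. The libraries came from K562, a leukemic cell line that carries the BCR-ABL fusion and expresses fetal and embryonic globins. Stable lines expressed an shRNA to luciferase (sh-luc, 3 libraries) or an shRNA to a long noncoding RNA (sh-lncRNA-IIRX, 3 libraries), and no library was treated with a drug. The labels call the target lncRNA-IIRX, whereas the study's text names the line whose transcriptome was sequenced after lncRNA-IUR-5, a member of a family of noncoding RNAs that rises when BCR-ABL is inhibited by imatinib. All 6 libraries thus carried BCR-ABL and an integrated shRNA vector, and the libraries of each group may come from a single derived line. The study's text describes 3 independent groups of cells, and nothing further says how the cultures were separated, so p-values measure the spread between these libraries.

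Glycolysis splits glucose into pyruvate with a net gain of ATP and NADH. Hexokinase traps glucose as glucose-6-phosphate, phosphofructokinase commits it to the pathway, and pyruvate kinase closes the pathway with a second ATP-forming step. Lactate dehydrogenase regenerates NAD+ by turning pyruvate into lactate, which lets glycolysis run without respiration. Hypoxia-inducible factor and MYC, which BCR-ABL signaling can raise, are known regulators of many of these genes.

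Total reads per library were between 21023739 and 23320543 in sh-luc and between 24325122 and 31481109 in sh-lncRNA-IIRX. Of 14 markers of K562 cells, 13 were at 1 RPKM or more (KIT was below), and their summed level was 25285 to 28380 RPKM in sh-luc libraries and 19942 to 21018 in sh-lncRNA-IIRX libraries. Of 10 markers of T, B, myeloid, stromal, liver and epithelial cells, 9 were below 1 RPKM in both groups, 2 of them without a read (MS4A1 and PAX5), and the exception was the epithelial marker EPCAM. The summed level of these 10 markers was 87.4 to 100 RPKM in sh-luc and 91.8 to 111 RPKM in sh-lncRNA-IIRX libraries. The part of the lower K562 marker level in the differences below was not tested. The level of the targeted noncoding RNA was not analysed here, because the rows of the table are proteins. Library 1 of each group stood apart from its group's other libraries, the chi-square per gene being 10.6 to 21.1 for pairs that held it, 5.41 between libraries 2 and 3 of sh-luc and 3.61 between libraries 2 and 3 of sh-lncRNA-IIRX. The library names number libraries 2 and 3 as parts of 1 series and library 1 as another. Libraries 2 and 3 of a group may thus be repeats of 1 culture, although the study's text describes 3 independent groups. If they are repeats, the SDs and p-values given with n = 3 rest on 2 independent samples a group. With libraries 2 and 3 summed and counted as 1 sample, an alternative chosen after seeing the data, 3181 of the 8944 genes tested passed the threshold described below in place of 4441.

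Promoter sequence is shown for 4 enzymes whose values differed in direction, HK2, LDHA, GAPDH and PGK1, because the motif of hypoxia-inducible factor and MYC is known from glycolytic genes. The windows are the 250 bases before an annotated RefSeq start (GRCh38.p14), and all 10 enzymes matched at least 1 of 18 windows. Capitals mark ACGTG, the core of the hypoxia response element, read on either strand (ACGTG or CACGT), and CACGTG, the E-box bound by MYC and related factors, which is its own reverse complement and contains ACGTG. HK2 and LDHA have 2 windows each, and the 1 with more matches is shown. The HK2 window not shown holds 2 matches of ACGTG or CACGT and no CACGTG, and that of LDHA holds 0 matches. The HK2 window shown is at chr2:74834920-74835169, the LDHA window shown at chr11:18394313-18394562, the GAPDH window at chr12:6535014-6535263 and the PGK1 window at chrX:78103998-78104247, each on the plus strand.
HK2: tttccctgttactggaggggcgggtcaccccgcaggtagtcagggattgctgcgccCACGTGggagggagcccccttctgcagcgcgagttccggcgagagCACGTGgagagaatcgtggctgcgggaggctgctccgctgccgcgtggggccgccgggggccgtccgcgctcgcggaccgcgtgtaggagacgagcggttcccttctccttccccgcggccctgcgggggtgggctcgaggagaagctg
LDHA: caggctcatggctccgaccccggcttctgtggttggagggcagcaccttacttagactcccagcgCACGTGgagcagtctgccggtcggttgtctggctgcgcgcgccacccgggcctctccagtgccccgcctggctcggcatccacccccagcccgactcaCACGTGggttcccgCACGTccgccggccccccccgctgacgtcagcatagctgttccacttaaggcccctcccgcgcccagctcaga
GAPDH: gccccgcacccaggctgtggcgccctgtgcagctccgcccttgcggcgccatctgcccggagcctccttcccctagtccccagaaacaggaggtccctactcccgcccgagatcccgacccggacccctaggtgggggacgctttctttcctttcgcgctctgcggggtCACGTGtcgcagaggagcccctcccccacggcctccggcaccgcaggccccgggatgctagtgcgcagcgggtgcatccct
PGK1: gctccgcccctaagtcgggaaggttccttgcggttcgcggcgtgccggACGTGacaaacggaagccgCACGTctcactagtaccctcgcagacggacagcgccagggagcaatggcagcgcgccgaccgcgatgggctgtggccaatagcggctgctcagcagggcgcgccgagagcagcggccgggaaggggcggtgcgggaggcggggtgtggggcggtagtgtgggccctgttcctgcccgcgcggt

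ACGTG was present in 11 of the 18 windows (61.1%), compared with 18.5% of all 35116 promoter windows of the same length. By gene, 8 of the 10 had it in at least 1 window. Genes differ in their number of windows, up to 4 for PFKP, and the share over all genes was not computed. The exceptions were ENO1 and PKM. CACGTG was present in 4 of the 18 windows (22.2%), 1 each of HK2, ALDOA, GAPDH and LDHA, compared with 6.34% of all windows. The 4 genes with CACGTG did not share a direction of change: the HK2 difference was positive, those of ALDOA and GAPDH were negative and that of LDHA was close to 0 (values below). A match of letters is a description of the window and not a binding site.

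Levels are given as RPKM, the reads of a row scaled to its coding length and to the summed reads of the library, and the summed RPKM of a gene adds its rows. In sh-luc cells the summed RPKM descended from GAPDH (3680 ± 183, SD, n = 3) through ENO1 (1412 ± 95.5), LDHA (1155 ± 143), ALDOA (838 ± 45.6), TPI1 (743 ± 36.1), GPI (281 ± 11.0), PGK1 (265 ± 15.0), PKM (162 ± 9.67) and PFKP (9.55 ± 1.60) to HK2 (0.508 ± 0.0395). The ranges of GPI and PGK1 overlapped, and those of every other pair of neighbors in this order were separate. In sh-lncRNA-IIRX cells PGK1 (320 ± 10.3) stood before GPI (295 ± 13.6), and overlap was seen between these 2 genes and between ENO1 (1421 ± 84.3) and LDHA (1303 ± 142). The enzymes of this list that catalyze the steps of glucose and fructose-6-phosphate phosphorylation were thus at the bottom in both groups.

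**Figure D1:**
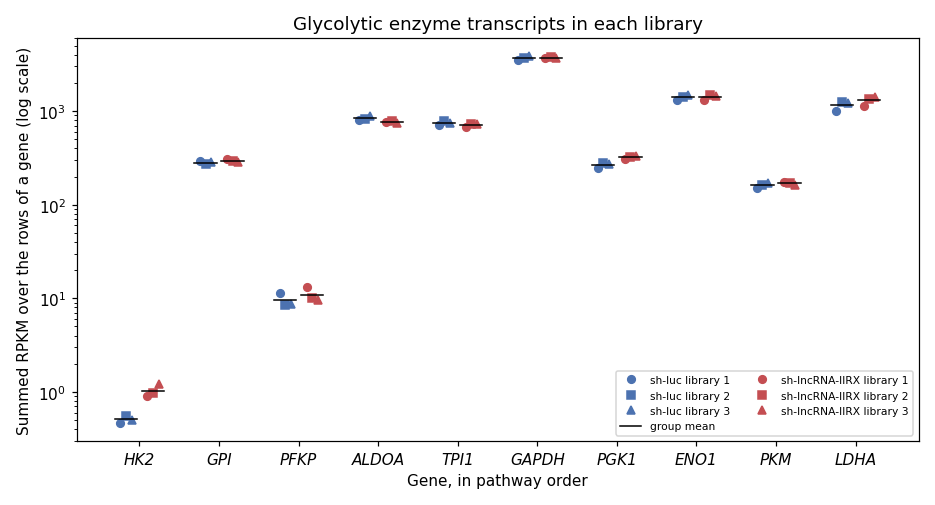
Summed RPKM of each enzyme (log axis, pathway order from left to right) in each library, with sh-luc in blue, sh-lncRNA-IIRX in red and a bar at the group mean. HK2 was lowest (0.470 to 0.549 in sh-luc, 0.902 to 1.23 in sh-lncRNA-IIRX) and GAPDH highest, and the points of the groups lay close together for most genes.

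Part of this order depended on how many isoform rows a gene has. On the most-read row alone, the sh-luc means were 941 ± 44.5 RPKM for GAPDH, 791 ± 52.8 for ENO1, 265 ± 15.0 for PGK1, 259 ± 13.2 for TPI1, 255 ± 29.3 for LDHA and 241 ± 13.0 for ALDOA. PGK1, with a single row, thereby moved from the seventh place to the third, although neighbors from PGK1 to ALDOA overlapped. The other enzymes followed with 70.0 ± 2.56 for GPI, 16.8 ± 1.10 for PKM, 0.857 ± 0.281 for PFKP and 0.129 ± 0.0349 for HK2.

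The 10 most-read rows together took 0.301%, 0.328% and 0.335% of all reads in sh-luc libraries 1, 2 and 3, and 0.324%, 0.346% and 0.344% in sh-lncRNA-IIRX libraries 1, 2 and 3. The Wilson 95% interval of each share was narrow, for example 0.299% to 0.303% in sh-luc library 1, and covers counting error only. The groups overlapped, with means of 0.321% ± 0.0179 and 0.338% ± 0.0123 (SD, n = 3 each) and a difference of 0.016 percentage points (exact permutation test, two-sided, p = 0.3, where 3 against 3 libraries cannot give less than 0.1). In bulk RNA, fewer cells of a type and less RNA per cell cannot be told apart.

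Knockdown and control cells were then compared gene by gene, to ask whether glycolytic transcripts differed when the noncoding RNA was targeted. Of the 10 enzymes, 8 passed the filter on low values (a row with a mean RPKM of at least 1), and HK2 and PFKP did not. Of these 8, 3 were lower in sh-lncRNA-IIRX cells (ALDOA, TPI1 and GAPDH) and 0 were higher at an adjusted p under 0.05 (edgeR quasi-likelihood test on summed reads, TMM scaling, Benjamini-Hochberg adjustment over 8944 genes). Among all genes tested, 49.7% passed this threshold, 23.2% as lower and 26.4% as higher. The median log2 fold change of the 8 enzymes was -0.13, compared with 0.015 over all genes tested. It was -0.26 over the 1324 genes with a summed RPKM of at least 100, of which 773 were lower and 113 higher, and these 8 enzymes belong to that abundance class. With libraries 2 and 3 of each group counted as 1 sample, ALDOA was called and the other 7 were not. With a term for the library series 4 were lower, ENO1 being added.

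The scaling set the sign for several enzymes. TMM gave factors of 0.927 to 0.945 to the sh-luc libraries and 1.05 to 1.10 to the sh-lncRNA-IIRX libraries, and scaling to total reads instead moved the median of all genes from 0.015 to 0.21 on the log2 scale. Under total-read scaling 54.1% of genes passed the threshold, 3828 higher and 1015 lower, in place of 2363 higher and 2078 lower. Of the 8 enzymes tested, PGK1 then passed the threshold, as higher, and the other 7 did not.

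**Figure D2:**
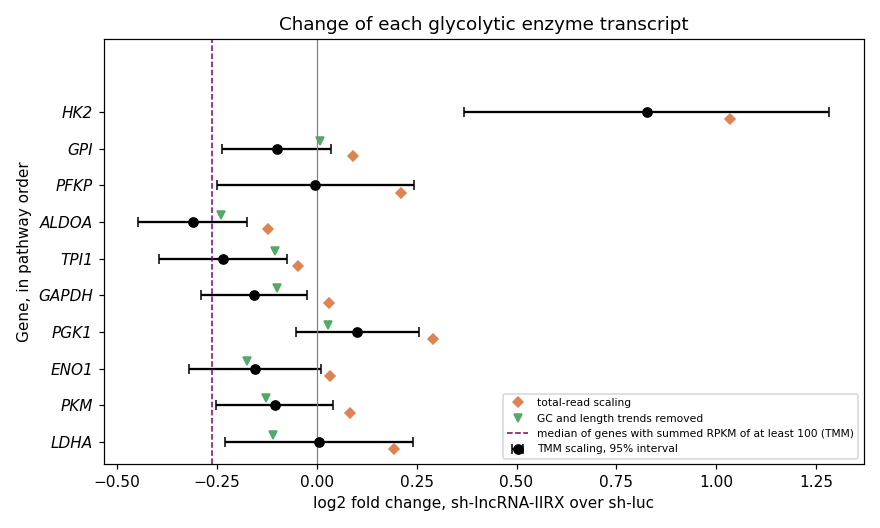
Log2 fold change (sh-lncRNA-IIRX over sh-luc) of each enzyme, in pathway order from the top, with TMM scaling (black, bars are 95% intervals), total-read scaling (orange) and after GC and length trends were removed (green, not available for HK2 and PFKP), beside the median of abundant genes (dashed, -0.26). HK2 alone lay far to the right, and GAPDH crossed 0 between scalings (-0.16 and 0.032).

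HK2 (chr2:74834127-74893359, plus strand, hg38, as for all gene positions given here) encodes a mitochondria-associated hexokinase that many tumors express. It had 30, 32 and 29 reads in sh-luc libraries 1, 2 and 3, and 78, 65 and 83 in sh-lncRNA-IIRX libraries 1, 2 and 3, summed over 4 rows. Its most-read row, XP_005264337.1, held 0.167, 0.0999 and 0.118 RPKM and 0.327, 0.190 and 0.287 RPKM in the same order. Every sh-lncRNA-IIRX library was above every sh-luc library in summed RPKM and in this row, at low read numbers in both groups, and the summed RPKM of 45.6% of the 15058 genes with a read was likewise separate between the groups. HK2 rose by 0.83 on the log2 scale (SE 0.22, 95% interval 0.37 to 1.28, 1.77-fold, adjusted p = 0.00492) in the fit without a filter on low reads, in which 33.7% of 15058 genes passed the threshold. In that fit 273 of the 1634 genes with a summed RPKM between 0.5 and 2 were higher (16.7%), and their median log2 fold change was 0.11. The HK2 difference kept its direction and its side of the threshold without each library in turn (0.67 to 0.96), and it was 0.69 within series 1 (library 1 of each group) and 0.89 within series 2 (libraries 2 and 3). With libraries 2 and 3 of each group counted as 1 sample it was 0.80 (adjusted p = 0.0109, edgeR).

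GPI (chr19:34359480-34402413, plus strand) interconverts glucose-6-phosphate and fructose-6-phosphate. It had 5562, 4715 and 4876 reads in sh-luc libraries and 7998, 5856 and 5747 in sh-lncRNA-IIRX libraries, and its most-read row, NP_001276718.1, held 71.1, 67.1 and 71.8 RPKM against 78.7, 73.2 and 72.8. The larger read numbers of sh-lncRNA-IIRX went with the greater depth of those libraries, and the summed RPKM of the groups overlapped. The log2 fold change was -0.10 (SE 0.062, 95% interval -0.24 to 0.037, adjusted p = 0.204, edgeR).

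PFKP (chr10:3066333-3137718, plus strand) is the platelet-type subunit of phosphofructokinase. It had 559, 377 and 382 reads in sh-luc libraries and 865, 512 and 497 in sh-lncRNA-IIRX libraries over 12 rows, and NP_002618.1, the most-read of them, held 1.17, 0.617 and 0.788 RPKM against 1.24, 0.820 and 0.841. Library 1 was the highest of its group in both groups, and the groups overlapped. The log2 fold change was -0.0032 (SE 0.12, 95% interval -0.25 to 0.24, adjusted p = 0.986, edgeR without a filter).

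ALDOA (chr16:30064164-30070457, plus strand) cleaves fructose-1,6-bisphosphate into triose phosphates. It had 21335, 20067 and 21341 reads in sh-luc libraries and 27390, 21572 and 21019 in sh-lncRNA-IIRX libraries. Its summed RPKM was 801, 824 and 889 in sh-luc and 760, 776 and 742 in sh-lncRNA-IIRX, so that every knockdown library was below every control library. The groups were also separate after TMM scaling, at 1170, 1213 and 1284 against 960, 1021 and 975 CPM (counts scaled to the adjusted library size), a property shared by 58.0% of all genes tested. On the most-read row, NP_001230106.1, the groups overlapped, with 233, 235 and 256 RPKM against 236, 231 and 225. ALDOA fell by 0.31 on the log2 scale (SE 0.062, 95% interval -0.45 to -0.17, adjusted p = 0.00175, edgeR). The difference was -0.28 within series 1 and -0.32 within series 2 of the libraries. The call held without each library in turn (-0.35 to -0.27) and with GC and length trends removed (-0.24, adjusted p = 0.0065) and with libraries 2 and 3 counted as 1 sample (adjusted p = 0.026), but not with total-read scaling (-0.12, adjusted p = 0.0781).

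TPI1 (chr12:6867119-6870948, plus strand) interconverts the triose phosphates. The annotated span of the gene overlaps that of SPSB2 on the opposite strand, and overlap of their coding parts was not examined. Reads of a shared stretch cannot be told apart without a statement of strand. It had 11663, 11763 and 11161 reads in sh-luc libraries and 14949, 12501 and 12987 in sh-lncRNA-IIRX libraries. Its most-read row, NP_001152759.1, held 246, 272 and 259 RPKM against 233, 253 and 265, and these ranges overlapped. After TMM scaling the summed reads were 639, 711 and 672 CPM in sh-luc and 524, 592 and 602 in sh-lncRNA-IIRX. These did not overlap, a property shared by 58.0% of all genes tested. TPI1 fell by 0.24 on the log2 scale (SE 0.073, 95% interval -0.39 to -0.076, adjusted p = 0.0195, edgeR). Within series 1 and series 2 the difference was -0.29 and -0.21. The adjusted p was 0.084 without sh-luc library 2 and 0.0554 without sh-luc library 3, 0.271 with GC and length trends removed (log2 fold change -0.11) and 0.531 with total-read scaling (-0.047). With libraries 2 and 3 counted as 1 sample it was 0.0828.

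GAPDH (chr12:6534512-6538374, plus strand) oxidizes glyceraldehyde-3-phosphate and was also the reference gene of the study's PCR measurements. It had 79772, 76870 and 79427 reads in sh-luc libraries and 113147, 89487 and 90012 in sh-lncRNA-IIRX libraries. The most-read row, NP_002037.2, held 896, 943 and 985 RPKM against 952, 963 and 956. In summed RPKM the sh-lncRNA-IIRX libraries lay inside the range of sh-luc, with means of 3714 ± 43.7 and 3680 ± 183 (SD, n = 3 each). After TMM scaling the values were 4374, 4645 and 4779 CPM in sh-luc and 3967, 4234 and 4174 in sh-lncRNA-IIRX. These did not overlap, as for 58.0% of all genes tested. GAPDH fell by 0.16 on the log2 scale with TMM scaling (SE 0.060, 95% interval -0.29 to -0.025, adjusted p = 0.0489, edgeR), whereas the sign turned with total-read scaling (0.032, adjusted p = 0.594). Within series 1 and series 2 the TMM-scaled difference was -0.14 and -0.16. The call held when either of 2 libraries was left out and was lost without any one of the other 4 (adjusted p up to 0.168). With libraries 2 and 3 counted as 1 sample the adjusted p was 0.196. In the genome annotation 65 pseudogenes are named for GAPDH, and reads of near-identical copies can be split by the counting, so its level is uncertain.

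The primers of the PCR reference are shown because the read values of GAPDH bear on it. The capitals of the forward primer mark the 9 bases after an exon junction, the 11 bases before it lying at chr12:6537000-6537010 and the others at chr12:6537101-6537109. The reverse primer lies at chr12:6537613-6537632 on the minus strand.
Forward: agaaggctgggGCTCATTTG
Reverse: aggggccatccacagtcttc
Both primers matched 9 of 11 annotated GAPDH transcripts, with a product of 258 bases. The forward primer also matched 3 places outside GAPDH and the reverse primer 10, all within annotated GAPDH pseudogenes. No pseudogene held an exact match of both primers, and inexact matches were not searched.

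PGK1 (chrX:77910739-78129295, plus strand) carries out the first ATP-forming step. It had 7265, 7416 and 7109 reads in sh-luc libraries and 12180, 9900 and 10170 in sh-lncRNA-IIRX libraries, all on 1 row, NP_000282.1. The RPKM values were 248, 277 and 270 against 309, 325 and 328, so that every knockdown library was above every control library, which held for 60.3% of all genes tested in 1 direction or the other. After TMM scaling the groups overlapped. The log2 fold change was 0.10 with TMM scaling (SE 0.070, 95% interval -0.052 to 0.26, adjusted p = 0.250, edgeR) and 0.29 with total-read scaling (adjusted p = 0.00188). With TMM scaling over genes with a row of mean RPKM of at least 10 it was 0.23 (adjusted p = 0.00704). The annotated span of the gene overlaps PGAM4, a copy of phosphoglycerate mutase, on the opposite strand, and overlap of coding parts was not examined.

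ENO1 (chr1:8861000-8879190, minus strand) forms phosphoenolpyruvate. It had 36073, 36098 and 37176 reads in sh-luc libraries and 49618, 43082 and 42481 in sh-lncRNA-IIRX libraries, and its most-read row, NP_001419.1, held 731, 810 and 832 RPKM against 768, 864 and 844. Library 1 was the lowest of each group and the groups overlapped. The log2 fold change was -0.15 (SE 0.075, 95% interval -0.32 to 0.011, adjusted p = 0.110, edgeR). It was past the threshold with a term for the library series (-0.16, adjusted p = 0.0141) and not with libraries 2 and 3 counted as 1 sample (adjusted p = 0.243). The antisense gene ENO1-AS1 overlaps the annotated span of ENO1, and overlap with its coding part was not examined.

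PKM (chr15:72199029-72231819, minus strand) encodes the muscle and embryonic forms of pyruvate kinase by alternative splicing. It had 5730, 5632 and 5825 reads in sh-luc libraries and 8963, 6746 and 6482 in sh-lncRNA-IIRX libraries over 11 rows, and XP_005254500.1, the most-read of them, held 15.8, 16.6 and 18.0 RPKM against 17.9, 18.7 and 16.7. The groups overlapped. The log2 fold change was -0.11 (SE 0.066, 95% interval -0.25 to 0.040, adjusted p = 0.208, edgeR).

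LDHA (chr11:18394560-18408425, plus strand) reduces pyruvate to lactate. It had 20923, 24254 and 23054 reads in sh-luc libraries and 32481, 29996 and 31479 in sh-lncRNA-IIRX libraries, and its most-read row, NP_001158886.1, held 222, 278 and 266 RPKM against 261, 316 and 325. Library 1 was the lowest of each group and the groups overlapped. The log2 fold change was 0.0064 (SE 0.11, 95% interval -0.23 to 0.24, adjusted p = 0.965, edgeR), and the interval leaves room for a difference in either direction.

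**Figure D3:**
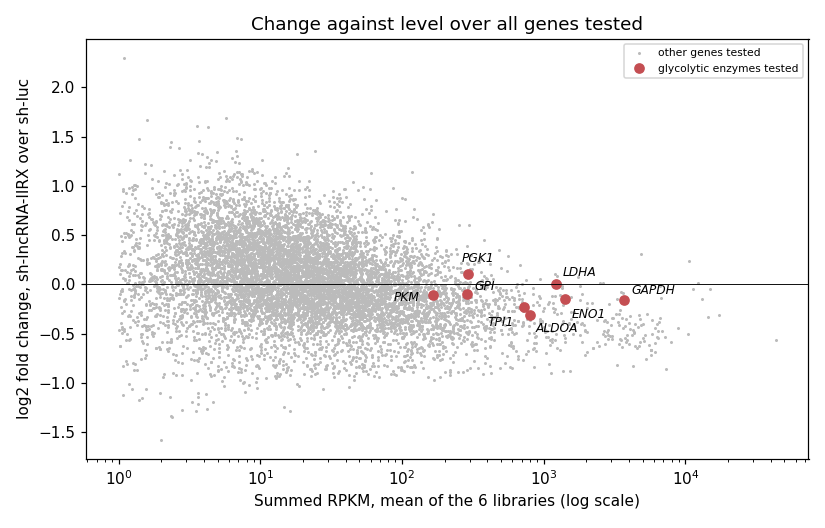
Log2 fold change with TMM scaling against the mean summed RPKM of the 6 libraries (log axis) for all 8944 genes tested (gray) and the 8 enzymes tested (red, named). The enzymes lay at the abundant end, where the gray points descend below 0, and between -0.31 (ALDOA) and 0.10 (PGK1).

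Read singly, 34 of the 50 rows passed the filter, 9 of them were lower and 0 higher, compared with 37.3% of 38204 rows past the threshold in either direction and 18.1% as lower. This balance turned with the scaling, to 3 higher and 2 lower rows with total-read scaling and 2 higher and 2 lower with limma on log2 RPKM. With a mean RPKM of at least 10 it was 2 higher and 3 lower. Rows of a gene share sequence and are not independent. The 4 ALDOA rows were lower (-0.38 to -0.26), as were the 3 TPI1 rows (-0.30 to -0.24). Among the 4 GAPDH rows the shortest, NP_001243728.1, of 882 bases, was lower (-0.22, adjusted p = 0.0151, edgeR), and the other 3, of 1008 bases each, had adjusted p values of 0.0508 to 0.0605. The ENO1 rows differed in their calls, with -0.25 (adjusted p = 0.0138) for NP_001188412.1, of 1026 bases, and -0.13 (adjusted p = 0.181) for NP_001419.1, of 1305 bases, and the difference between these rows was not tested.

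None of the rows of GPI, PGK1, PKM and LDHA passed the threshold. The 11 PKM rows ranged from -0.23 to -0.055. The 5 LDHA rows lay on both sides of 0, with 0.12 for NP_001158888.1, 0.046 for NP_001158886.1, -0.017 for NP_005557.1, -0.072 for NP_001158887.1 and -0.12 for NP_001128711.1. Over the 34 rows, 31 log2 fold changes were negative and 3 positive.

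Rows of 1 gene with the same length held nearly the same number of reads. The 3 GAPDH rows of 1008 bases differed by 0.307% to 1.47% within a library and the 3 ALDOA rows of 1095 bases by 1.13% to 3.22%, with a mean chi-square per degree of freedom of 0.545 and 0.746. Single libraries reached 1.63 for GAPDH and 1.33 for ALDOA. On average equal-length rows thus differed by no more than counting noise, and they were not identical. Whether they differed by less than counting noise was not tested. The rule by which a read fitting several rows was placed is not given in the sources used here.

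Base composition moved with the changes across the transcriptome. Across the 8836 genes with an annotated coding sequence, the log2 fold change had a Pearson correlation of -0.24 and a Spearman correlation of -0.26 with coding GC content, and a Pearson correlation of 0.31 with log2 coding length. Genes share libraries in this description and are not independent replicates. The enzymes had a median coding GC content of 56.4%, from 45.1% (LDHA) to 59.2% (ALDOA), compared with 52.0% over all genes tested. With both trends removed, 48.1% of genes passed the threshold, and of the enzymes ALDOA did. The part of GC content and length in the TPI1 and GAPDH differences was not tested further.

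At several steps another isozyme had a higher summed RPKM than the enzyme described above, a comparison of transcript levels over differing numbers of rows. HK1, the hexokinase of most tissues including red cells, had a summed RPKM of 121 ± 1.60 in sh-luc (n = 3), where HK2 had 0.508, and its log2 fold change was -0.071 (adjusted p = 0.338, edgeR). It was -0.20 (adjusted p = 0.00714) with GC and length trends removed. PFKL, the liver-type phosphofructokinase, was at 50.0 ± 2.39 RPKM, above PFKP at 9.55 and PFKM, the muscle type, at 8.19, with a log2 fold change of -0.12 (adjusted p = 0.220). PGAM1, the phosphoglycerate mutase between PGK1 and ENO1, was at 159 ± 12.7 RPKM with a log2 fold change of 0.11 (adjusted p = 0.263). PGAM1 was past the threshold in 7 of 22 fits, among them total-read scaling (0.30, adjusted p = 0.00698) and the fit with GC and length trends removed (0.24, adjusted p = 0.0198). At the last step LDHB, the heart-type lactate dehydrogenase, was at 1244 ± 72.4 RPKM in sh-luc and 1178 ± 50.1 in sh-lncRNA-IIRX, so that its level was near that of LDHA. LDHB fell by 0.25 on the log2 scale (adjusted p = 0.0132, edgeR), which was not past the threshold with total-read scaling (-0.061, adjusted p = 0.386) or with libraries 2 and 3 counted as 1 sample (adjusted p = 0.0683). It was the 1 gene called among the 9 tested of 17 in this list, whose median was 0.056.

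Transcripts of SLC2A1, SLC2A3 and SLC16A1, which bring glucose in and carry lactate across the membrane, were higher. Of 8 transporters of glucose, lactate and pyruvate, 5 were tested, 3 were higher and 1 lower, with a median of 0.47. The lower gene was MPC2, a pyruvate transporter, named here after its values were seen. It fell by 0.31 (adjusted p = 0.00172, edgeR), from 396 ± 13.0 to 360 ± 9.04 RPKM. With total-read scaling MPC2 was not past the threshold (-0.12, adjusted p = 0.117). SLC2A1, the GLUT1 glucose transporter, was at 71.5, 57.5 and 62.9 RPKM in sh-luc libraries and 115, 94.98 and 91.1 in sh-lncRNA-IIRX libraries, and rose by 0.47 (adjusted p = 0.00185, edgeR). SLC2A3, the GLUT3 transporter, was at 5.21, 4.50 and 4.27 RPKM against 11.1, 8.16 and 8.83, and rose by 0.84 (adjusted p = 0.000397). SLC16A1, the monocarboxylate transporter MCT1, was at 21.3, 21.8 and 21.9 RPKM against 41.3, 34.5 and 38.6, and rose by 0.64 (adjusted p = 7.24e-05). In RPKM the groups of these 3 genes did not overlap, which held for 60.3% of all genes tested. Their calls held with total-read scaling (0.67, 1.03 and 0.83) and without each library in turn. Among all genes tested 26.4% were higher and 23.2% lower, the background for this list and those below.

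Of 11 regulators and gluconeogenic enzymes 3 were tested, 1 was higher and 1 lower, with a median of 0.16. PFKFB2, which makes the phosphofructokinase activator fructose-2,6-bisphosphate, was at 2.99, 1.77 and 1.94 RPKM in sh-luc libraries and 7.55, 5.14 and 5.93 in sh-lncRNA-IIRX libraries, and rose by 1.29 (SE 0.20, adjusted p = 0.000331, edgeR). PCK2, the mitochondrial phosphoenolpyruvate carboxykinase, fell by 0.31 (adjusted p = 0.00421), from 29.0 ± 1.33 to 26.5 ± 0.911 RPKM, and was not past the threshold with total-read scaling (adjusted p = 0.174).

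The pyruvate dehydrogenase complex turns pyruvate into acetyl-CoA, and its kinases switch it off. Of 12 genes in this list 8 were tested, 5 were higher and 1 lower, with a median of 0.37. PDK4, a kinase of the complex, was at 2.57, 3.53 and 3.12 RPKM against 6.86, 8.08 and 7.13, and rose by 1.09 (adjusted p = 0.000167, edgeR). PDK1, another kinase, rose by 0.50 (adjusted p = 0.0162), a call that was lost in 3 of the 6 fits that left out 1 library (adjusted p up to 0.0644). DLAT, the acetyltransferase subunit, rose by 0.50 (adjusted p = 0.000685), from 29.7 ± 3.18 to 47.3 ± 1.69 RPKM. The 1 lower gene was PDHA1, the catalytic subunit that decarboxylates pyruvate, named here after its values were seen. It fell by 0.32 (adjusted p = 0.00327), from 212 ± 6.01 to 190 ± 10.3 RPKM, and was not past the threshold with total-read scaling (-0.14, adjusted p = 0.0774). PDHX (0.42, adjusted p = 0.000683, edgeR) and DLD (0.32, adjusted p = 0.00196), named after their values were seen, were also higher. PDHB was not called (-0.069, adjusted p = 0.409). Of the kinases tested, PDK4 and PDK1 were thus higher, and PDK3 was not called (-0.25, adjusted p = 0.230). Among the subunits of the complex, DLAT, PDHX and DLD were higher and PDHA1 lower.

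The pentose phosphate pathway branches off at glucose-6-phosphate and makes NADPH and ribose. All 7 genes of its list were tested, 3 were lower and 0 higher, with a median of -0.13. RPE, which interconverts pentose phosphates, fell by 0.66 (adjusted p = 6.52e-05, edgeR), from 127 ± 6.07 to 92.6 ± 4.25 RPKM. PGLS, the lactonase of the oxidative arm, fell by 0.57 (adjusted p = 0.00107), from 47.7 ± 5.80 to 36.3 ± 4.49 RPKM. TALDO1, the transaldolase that links the pathway back to glycolysis, fell by 0.37 (adjusted p = 0.000419), from 704 ± 26.2 to 612 ± 8.22 RPKM. These 3 calls held in each of the 22 fits, total-read scaling included. Over the 5 lists together 9 genes were higher and 7 lower of 32 tested of 55, with a median of 0.034, beside the 49.7% called among all genes. With total-read scaling 14 were higher and 3 lower.

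**Figure D4:**
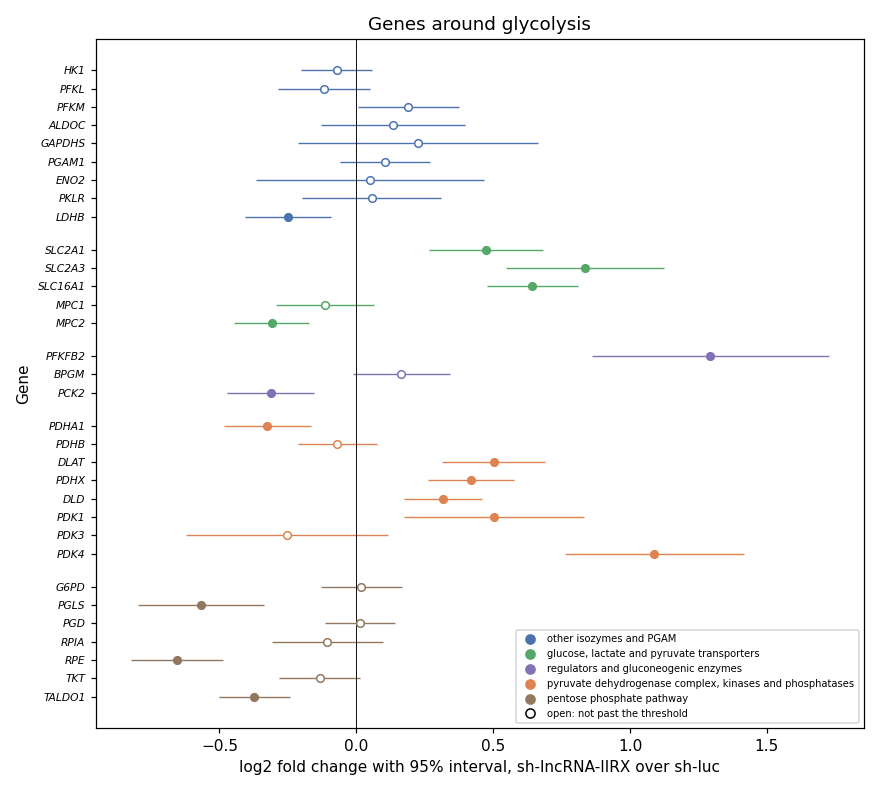
Log2 fold change with 95% intervals of the 32 tested genes around glycolysis, colored by list, with filled points past the threshold. The transporters SLC2A1, SLC2A3 and SLC16A1, PFKFB2 and PDK4 lay to the right of 0, and RPE, PGLS and TALDO1 to the left.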

How the data were processed

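RNA-seq of K562 cells gave 3 sh-luc and 3 sh-lncRNA-IIRX libraries. The deposited table holds read counts and RPKM per RefSeq protein accession, which the authors made with tools that the submitters' notes list as CASAVA 1.8, Trimmomatic 0.32, Bowtie2 2.1.0 and SAMtools 0.1.19 on hg38. The study's methods give Casava for base calling, removal of adaptors and of poor sequence, mapping to hg38 and RPKM calculation with SAMtools. How reads that fit several rows were placed is not given in the sources used here. The deposited RPKM equalled reads per coding length and summed reads, and 99.8% of lengths were multiples of 3. A second deposited table of pooled reads, fold changes and p-values was not used.

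Rows were matched to gene symbols by accession (64.7% of rows, holding 83.9% to 84.8% of reads), so a sum can miss unmatched isoforms. Reads were summed per gene and tested with edgeR 4.0.16 in R 4.3.3 (quasi-likelihood, TMM, no covariate, 8944 genes with a row of mean RPKM of at least 1, Benjamini-Hochberg, threshold 0.05). HK2 and PFKP come from the same fit without that filter. Rows were also tested singly. GC and length trends were fitted with mgcv 1.9.3. Gene positions are from GENCODE 44 and hg38, promoters from RefSeq. Scripts were tested on simulated data. Alternatives were DESeq2, limma, other scalings and filters, a replicate block, a series term, libraries 2 and 3 summed, and leaving out each library. The 10 enzymes were named in pathway order with their reads and most-read row, and at most 12 called genes of the other lists, taken in turn from each list in order of the size of change within it, with the highest isozyme of each step. Some further genes were named after their values were seen. The members and lists were chosen with earlier results of these data known.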

Additional observations from a re-analysis of the deposited data

How the results depend on the processing

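The HK2 increase kept its direction and its side of the threshold in all 13 fits made of it (0.67 to 1.03), and the ALDOA decrease in 18 of 22, the exceptions being total-read scaling and limma 3.58.1 on log2 RPKM with 3 pseudocounts. HK2 was below the filter of the limma, trend-removal, RPKM-filter and most-read-row fits, which were thus not made of it. Its count and that of ALDOA are therefore not alike. The TPI1 call held in 12 of 22 fits and the GAPDH call in 7 of 22. The GAPDH log2 fold change was 0.032 with total-read scaling and 0.014 with limma at each pseudocount (0.01, 0.1 and 1). With total-read scaling and with limma, 1 enzyme passed the threshold in place of 3, which was PGK1, and with GC and length trends removed also 1, which was ALDOA. With TMM scaling over genes with a row of mean RPKM of at least 10, 2 enzymes passed. These were PGK1 as higher (0.23, adjusted p = 0.00704, edgeR) and ALDOA as lower (-0.19, adjusted p = 0.0124). TPI1 (-0.11, adjusted p = 0.131) and GAPDH (-0.032, adjusted p = 0.577) did not pass in that fit. Without 1 library each, 1 to 3 enzymes, 5 to 11 rows, 15 to 17 genes of the other lists and 3635 to 4406 of all genes passed, and the difference in read share was 0.0063 to 0.023 percentage points. Of the enzymes' rows, 9 in the text, 5 passed with total-read scaling (3 higher), 4 with limma at each pseudocount (2 higher), 15 with DESeq2 1.42.0, 14 without a filter, 5 with a mean RPKM of at least 10 (2 higher), 5 with GC and length trends removed and 16 with a term for the library series. A mean RPKM of at least 10 left 2096 of all genes past the threshold. The filter on the summed RPKM, at 1, and the fit with libraries 2 and 3 of each group summed were chosen after seeing the data, and in the latter 1 enzyme and 4 of the rows passed.

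The labels number the libraries alike in both groups. Deviations from the group means correlated at 0.47, 0.19 and -0.019 for same-numbered pairs, so the numbers were not taken as pairs, and sh-luc library 2 correlated best with sh-lncRNA-IIRX library 3 (0.39). The correlation of sh-luc library 3 with sh-lncRNA-IIRX library 2 was 0.22, and pairs from different series were at -0.42 to -0.13. Deviations within a group sum to 0, so these correlations depend on each other. The main test had no term for the series. With a replicate block 2 enzymes, 14 of their rows, 16 other pathway genes and 5287 of all genes passed. With the block and GC and length trends removed, 4 enzymes, 12 of their rows and 22 other pathway genes passed, and the enzymes were ALDOA, ENO1 (adjusted p = 0.00305), PKM (0.034) and LDHA (0.0253), all lower. LDHA was then at -0.11, and RPIA, a pentose phosphate isomerase, passed as higher at 0.23 (adjusted p = 0.0198). The series term added ENO1, for 4 enzymes, and 5557 of all genes passed with it in place of 4441. The cause of these differences was not tested. Low read numbers limit HK2, and shared reads limit single isoforms.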

Other observations

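The rows of HK1 are given here because 1 of them was called, a choice made after their values were seen. The longest row, NP_001309294.1, of 2859 bases, was at 33.0, 30.8 and 31.7 RPKM in sh-luc libraries 1, 2 and 3 and at 24.4, 24.5 and 25.5 RPKM in sh-lncRNA-IIRX libraries. Every knockdown library was below every control library, and the row fell by 0.55 on the log2 scale (SE 0.075, 95% interval -0.71 to -0.40, adjusted p = 1.70e-05, edgeR on single rows, where 37.3% of rows passed). The other 8 rows of HK1 ranged from -0.0043 to 0.10, and 0 of them passed the threshold (adjusted p from 0.327 to 0.974). The difference between the rows was not tested, and the rows share most of their sequence.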
